A study of Mus musculus with 71 samples.

Results

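The libraries labelled Ccnk knockout are 2 of the 71 samples of the series, and were chosen by their labels as the Ccnk replicates of day 13. They were set against the 2 wild-type libraries of day 13. For placement they were also set against the 28 libraries of 14 other day 13 knockouts and the 2 wild-type libraries of day 11. The 14 were the knockouts of Dynll1, Ell3, Foxr1, Hes6, Kdm1b, Mef2b, Nobox, Noto, Sfr1, Sohlh1, Tbpl2, Tcf25, Thap7 and Ybx3. Day 11 knockouts of Figla, Lhx8, Stat3 and Sub1 were also part of the fit that gave the p-values. The cells were mouse oocytes made in culture from embryonic stem cells (ESCs) of C57BL/6 X 129 background. Every group, wild type included, carried 2 fluorescent reporters of germ cells, Blimp1-Venus and Stella-CFP. Primordial germ cell-like cells derived from the ESCs were joined with somatic cells of E12.5 female gonads into reconstituted ovaries, with retinoic acid for the first 2 days and 500 nM of the estrogen receptor antagonist ICI182780 in the medium between days 7 and 10. Oocytes positive for SC, read here as Stella-CFP, were then sorted by flow cytometry, and directional libraries were made from polyA RNA. The word Ccnk stands in the title and source name of the libraries, while the genotype field names the reporters alone. The labels give no guide, deletion, clone number or protein check for it, and they do not say whether the 2 replicates came from separate cultures, so p-values measure the spread between libraries, which may be technical.

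Ccnk encodes cyclin K, the cyclin partner of the kinases CDK12 and CDK13. These kinases phosphorylate the C-terminal domain of RNA polymerase II during elongation, and in mammalian cells loss of cyclin K or CDK12 is known for lowering long genes, genes of the DNA damage response and homologous recombination among them. In a growing oocyte, transcription of egg coat, maternal effect and storage genes rises while genes of meiotic prophase, which was completed earlier, decline.

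The deposited values are TPM (a length-corrected share of a library's reads, scaled to a fixed total), and changes were computed on log2(TPM + 1), which understates the changes of low genes. In the table Ccnk (chr12:108179579-108203359, plus strand, GRCm38) had 178 and 163 TPM in the libraries labelled Ccnk knockout, against 164 and 172 TPM in wild type of day 13. The values of the groups overlapped, and the log2 change was 0.02 (SE 0.09, limma adjusted p = 0.95). After rescaling of the libraries by the median of ratios the log2 change was -0.28 (limma adjusted p = 0.037), short of the limit of 1 used for a call. Wild type of day 11 had 202 and 197 TPM. Over 16 groups of day 13 the lowest mean was 150.1 TPM in the Dynll1 knockout and the highest 295 TPM in the Nobox knockout. The mean of 171 ± 10.5 TPM (SD, n = 2) in the libraries labelled Ccnk knockout was above that of 3 groups and below that of 12. Its neighbours in that order, wild type of day 13 at 168 ± 5.64 TPM and the Kdm1b knockout at 173 ± 3.04 TPM (SD, n = 2 each), lay within its SD. TPM sums reads over a whole gene, so the loss of a few bases need not lower it, and the level of Ccnk RNA does not check the label.

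**Figure D1:**
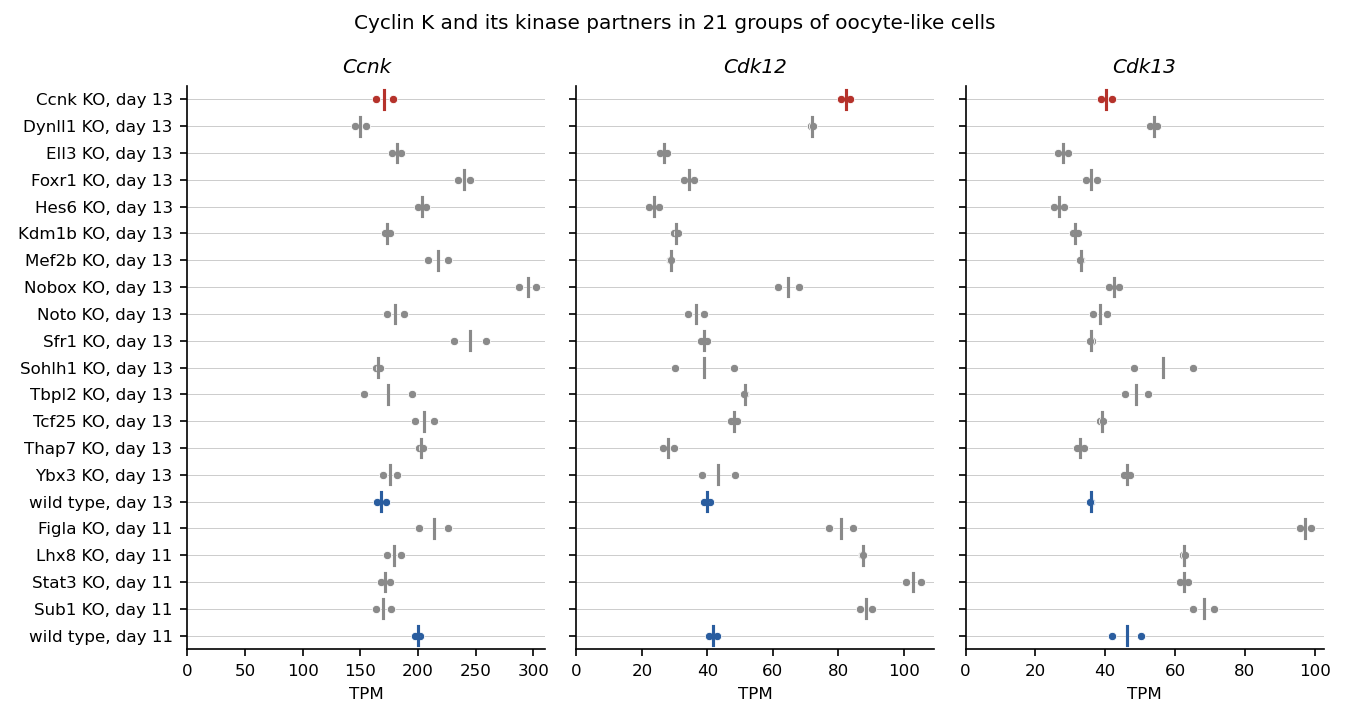
TPM of Ccnk, Cdk12 and Cdk13 (horizontal axes) in the 2 libraries of each of 21 groups (rows), with dots for libraries and a bar for the group mean. Red marks the libraries labelled Ccnk knockout, blue the wild types, grey the other knockouts; the red dots of Cdk12, at 80.9 and 83.6 TPM, lie right of all other day 13 groups, while those of Ccnk lie among them.

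The kinase partners differed from each other. Cdk12 (chr11:98203059-98278504, plus strand) had 80.9 and 83.6 TPM in the libraries labelled Ccnk knockout, against 40.7 and 39.0 TPM in wild type of day 13 and 40.3 and 42.9 TPM in wild type of day 11. It rose by a log2 change of 1.03 (SE 0.14, limma adjusted p = 1.2e-05) over wild type of day 13. Relative to the rescaled libraries the change was 0.73 (limma adjusted p = 4.1e-04) and without wild-type replicate 2 it was 0.997, both under the limit of 1. Both libraries were above each of the 30 other day 13 libraries, which spanned 22.1 to 72.3 TPM, with the Dynll1 knockout highest. In the 4 knockouts of day 11 group means were 80.8 to 103 TPM, so levels as high were present elsewhere in the series. Cdk13 (chr13:17710315-17805097, minus strand) had 38.8 and 41.9 TPM, against 35.9 and 35.8 TPM in wild type of day 13 (log2 change 0.17, limma adjusted p = 0.38, and -0.13 after rescaling). No call was made for it, and 10 of the 15 other day 13 groups had a lower mean.

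Among the genes analysed more were higher than lower in the libraries labelled Ccnk knockout. Of the genes used 14528 have an annotation, nearly all of them on chromosomes 1 to 5 and 10 to 19, and most genes of the other chromosomes were not analysed here, so each list is described by the members that were measured. A gene was called when its limma adjusted p was under 0.05 and its log2 change at least 1 in size. Of 12306 genes tested 643 were called higher (5.23% of the genes tested) and 112 lower (0.91%) against wild type of day 13. The median log2 change of all genes tested was 0.22, a shift that rescaling by the median of ratios brought to 0.01. Relative to that shift 379 genes were called higher (3.08%) and 236 lower (1.92%), so the share of higher calls was 61.6%, against 85.2% without rescaling. Without Ccnk-labelled replicate 1 the calls were 419 higher and 53 lower, and without Ccnk-labelled replicate 2 and without wild-type replicate 1 the lower calls were 57 and 71. The 50 most abundant genes took 15.9% and 15.8% of the summed TPM in the libraries labelled Ccnk knockout, and 21.0% and 20.9% in wild type of day 13. The number of genes at 1 TPM or more was 9461 and 9422, against 8910 and 8939 in wild type of day 13. Pearson's r between replicates on the log2 scale, across genes, was 0.992 in the libraries labelled Ccnk knockout and 0.986 in wild type of day 13. It was lowest, at 0.836, in the Sohlh1 knockout, whose 2 libraries had summed stromal and endothelial markers of 338 and 4761 TPM. These libraries enter the spread behind the p-values, so a gene not called may still differ. Without them 885 genes were called higher and 162 lower against wild type of day 13. In bulk samples such as these, more cells of a type and more RNA per cell cannot be told apart.

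Genes of meiotic prophase, the stage in which homologous chromosomes pair and recombine, were higher in the libraries labelled Ccnk knockout in 10 of 24 measured members and lower in 0 by limma, with a median log2 change of 0.97, against 5.23% higher and a median of 0.22 over all genes. After rescaling 8 were called higher and 1, Psmc3ip, lower. Dmc1 (chr15:79561497-79605109, minus strand), the meiotic recombinase, had 39.0 and 42.5 TPM in the libraries labelled Ccnk knockout, against 1.80 and 6.16 TPM in wild type of day 13, while wild type of day 11 had 13.2 and 20.2 TPM. The log2 change over wild type of day 13 was 3.22 (SE 0.31, limma adjusted p = 5.2e-08). Both libraries were above both wild-type pairs.

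Spata22, a single-strand DNA binding partner of Meiob in recombination, had 36.6 and 30.6 TPM, against 4.94 and 2.83 TPM in wild type of day 13 (log2 change 2.85, SE 0.35, limma adjusted p = 2.2e-06). Hfm1, a helicase of crossover formation, had 25.2 and 26.8 TPM, against 4.63 and 3.81 TPM (log2 change 2.38, SE 0.17, limma adjusted p = 4.9e-10). In both genes the groups did not overlap, and wild type of day 11 lay between them, at 22.5 and 16.5 TPM for Spata22 and 18.0 and 11.2 TPM for Hfm1. Spo11, which makes the breaks that start recombination, had 12.1 TPM in both libraries and 1.30 and 1.32 TPM in wild type of day 13 (log2 change 2.50, SE 0.70, limma adjusted p = 0.014). Its call did not hold when any 1 of the 4 libraries was left out (adjusted p 0.071 to 0.081). Msh5, of the crossover complex, Prdm9, which marks sites of breaks, Hormad1, an axis protein, and Meiob rose as well, with log2 changes of 2.15, 1.99, 1.63 and 1.34. The cohesin subunit Rad21l and the axis protein Hormad2 rose by 1.24 and 1.01, and were not called after rescaling.

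Members of the list that were not called included structural genes of the synaptonemal complex. Sycp3, of its lateral element, had 960.4 and 969 TPM, against 872 and 908 TPM in wild type of day 13 (log2 change 0.12, limma adjusted p = 0.10), and Sycp1 had 124 and 125 TPM, against 86.6 and 88.1 TPM (log2 change 0.51). Neither was called. Syce3, of the complex's central element, was not called at a log2 change of 2.05 (limma adjusted p = 0.18). It had 60.9 and 34.6 TPM, against 10.34 and 10.25 TPM in wild type of day 13. Rec8, a meiotic cohesin subunit with 2.97 and 4.73 TPM, was not called at 1.598 (limma adjusted p = 0.28). Both were called higher without the Sohlh1 knockout libraries (limma adjusted p = 0.007 and 1.4e-04) and in a fit on the groups compared alone. Mnd1 and Psmc3ip, whose products act as a pair that stimulates DMC1, had log2 changes of -0.33 and -0.72. In Psmc3ip, 53.8 and 49.3 TPM stood against 98.0 and 75.2 TPM in wild type of day 13, and all 14 other day 13 knockouts had a higher mean.

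The promoters of the called meiotic genes are shown because germ cell genes of this kind are known for E2F6 and MGA sites in their promoters. In RefSeq's windows from 250 bases before to 50 after the start (build GRCm38.p6), 8 of the 10 called members had an entry. The E2F-type motif GCGGGAA, searched on both strands, was in 4 of these 8 (Hormad1, Spata22, Prdm9 and Msh5) and in 3 of 14 members not called, against 5.29% of all 27025 genes with a window. The E-box CACGTG was in 1 of the 8, Hormad1, and in 3 of the 14 not called, against 8.09% of all genes. TGACGT was in 0 of the 8 and 0 of the 14. The windows of Spata22 (chr11:73329491-73329790, plus strand) and Msh5 (chr17:35046573-35046872, minus strand) are printed 5′ to 3′ with GCGGGAA in capitals, and that of Dmc1 (chr15:79605060-79605359, minus strand) holds none of the 3 motifs.
Spata22: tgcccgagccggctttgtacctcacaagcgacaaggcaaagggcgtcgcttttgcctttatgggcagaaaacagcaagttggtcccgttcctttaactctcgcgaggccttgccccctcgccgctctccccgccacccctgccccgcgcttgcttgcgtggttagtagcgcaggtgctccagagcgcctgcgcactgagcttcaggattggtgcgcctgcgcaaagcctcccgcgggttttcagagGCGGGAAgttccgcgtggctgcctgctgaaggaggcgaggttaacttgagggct
Msh5: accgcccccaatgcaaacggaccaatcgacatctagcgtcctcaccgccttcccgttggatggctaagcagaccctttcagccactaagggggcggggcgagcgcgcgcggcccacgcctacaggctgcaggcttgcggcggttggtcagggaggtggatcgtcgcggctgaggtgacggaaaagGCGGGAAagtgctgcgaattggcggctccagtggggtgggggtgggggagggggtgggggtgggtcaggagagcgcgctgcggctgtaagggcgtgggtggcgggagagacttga
Dmc1: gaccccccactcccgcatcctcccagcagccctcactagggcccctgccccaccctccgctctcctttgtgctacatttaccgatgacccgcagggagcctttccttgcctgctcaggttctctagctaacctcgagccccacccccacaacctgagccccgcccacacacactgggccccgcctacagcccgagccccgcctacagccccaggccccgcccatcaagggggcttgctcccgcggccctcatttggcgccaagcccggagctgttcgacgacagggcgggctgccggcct
A match describes the letters in the window and no binding was measured.

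**Figure D2:**
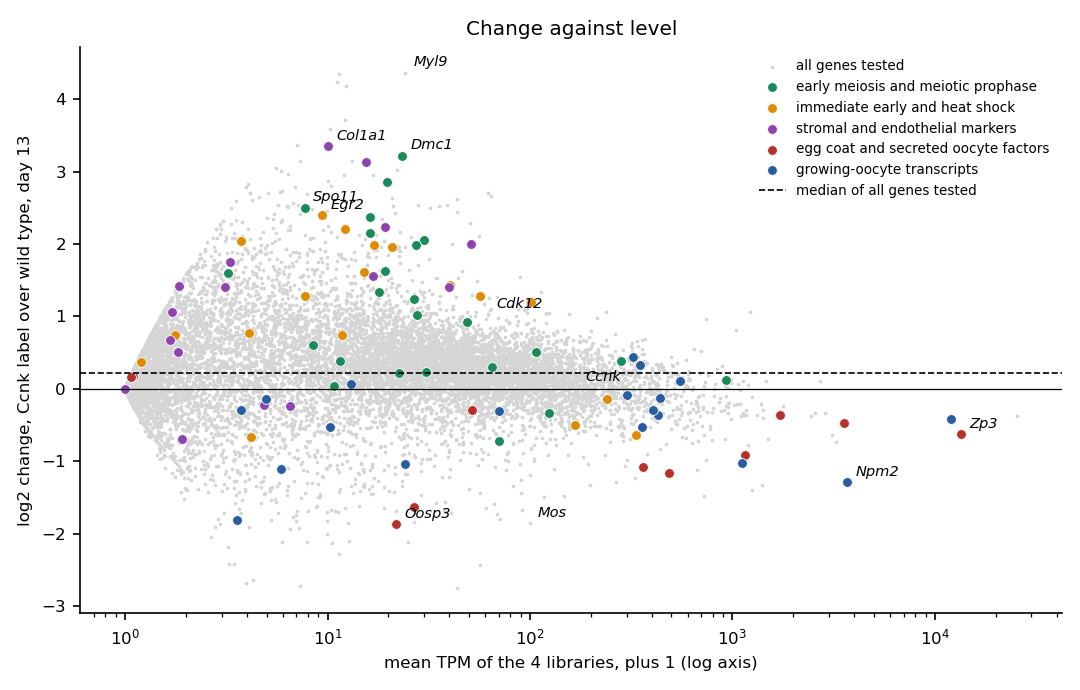
Log2 change of the libraries labelled Ccnk knockout over wild type of day 13 (vertical axis) against the mean TPM of the 4 libraries plus 1 (log axis), for all 12306 genes tested in grey and 5 gene lists in colour. Meiotic, immediate early and stromal genes lie mostly above the dashed median of 0.22, while egg coat and growing-oocyte genes lie mostly below it.

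Genes of oocyte growth were lower or not called. Of 19 measured growing-oocyte transcripts 0 were called higher and 5 lower, with a median log2 change of -0.30, against 0.91% lower over all genes. Npm2, a histone chaperone of the egg, had 2201 and 2087 TPM in the libraries labelled Ccnk knockout, against 5299 and 5199.95 TPM in wild type of day 13 and 805 and 715 TPM in wild type of day 11 (log2 change over day 13 -1.29, SE 0.38, limma adjusted p = 0.018). Zar1, which binds stored maternal mRNA, had 734 and 727 TPM, against 1537 and 1453 TPM (log2 change -1.03, SE 0.21, limma adjusted p = 0.0011). Both genes stood between the wild types of the 2 days, since Zar1 had 59.1 and 46.9 TPM on day 11. Dnmt3l, the cofactor of de novo DNA methylation, had 0.78 and 0.35 TPM, against 5.46 and 3.62 TPM (log2 change -1.82, SE 0.33, limma adjusted p = 3.7e-04), and it was at 0 in both day 11 wild-type libraries. Oog1 and Oog4, of a family of oocyte genes with near-identical copies whose levels are uncertain, fell by 1.11 and 1.04. With a pseudocount of 0.1 only Dnmt3l of these 5 was called, and with 1 library left out 1 or 2 were called.

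Egg coat and secreted factors were among the abundant genes. Zp3 (chr5:135980099-135988624, plus strand), the zona pellucida protein that binds sperm, had 10727 and 10387 TPM, against 16422 and 16226 TPM in wild type of day 13 and 1943 and 1843 TPM in wild type of day 11. The log2 change was -0.63 (SE 0.11, limma adjusted p = 2.4e-04), under the limit of 1. Padi6, of the subcortical maternal complex, had 22446 and 21987 TPM, against 29352 and 28462 TPM (log2 change -0.38, SE 0.12, limma adjusted p = 0.030). In both genes the groups did not overlap. Over 10 egg coat and secreted factors 0 were called higher and 1, Oosp3, lower, with a median log2 change of -0.77, and 3 were called lower after rescaling. The lower count was 4 in a fit on the groups compared alone, 3 without the Sohlh1 knockout libraries and 2 in 1 fit over all samples. Fgf8 and Oosp1, at log2 changes of -1.64 and -1.16, were called lower without the Sohlh1 knockout libraries (limma adjusted p = 0.014 and 7.1e-04). Oosp3 had 10.4 and 6.21 TPM, against 24.1 and 42.8 TPM, and lost its call without either Ccnk-labelled library or without wild-type replicate 2. In the 3 measured genes of the subcortical maternal complex none was called, and Tle6 and Zbed3 were called lower after rescaling (log2 changes -1.03 and -1.07). Of 17 genes of maternal mRNA storage and translation 2 were called lower, Zar1 and Pabpc1l, a cytoplasmic poly(A)-binding protein of oocytes, which had 42.2 and 43.1 TPM, against 131 and 146 TPM (log2 change -1.68, SE 0.29, limma adjusted p = 1.8e-04). Their calls did not hold with a pseudocount of 0.1, and Zar1 was at -0.99 without wild-type replicate 1. Eif4e1b of this list was not called at a log2 change of -1.49. It was called lower without the Sohlh1 knockout libraries (limma adjusted p = 0.0036). The respiratory chain, at 47 genes, had 0 calls and a median of -0.11.

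The measured target genes of the study's knockouts, Ccnk among them, were not called before rescaling. Of 12 measured, 0 passed in either direction against wild type of day 13, at a median log2 change of -0.12, and after rescaling 1, Ell3, was lower. Sohlh1 had 915 and 946 TPM, against 908 and 911 TPM in wild type of day 13, and Lhx8 418 and 412 TPM, against 464 and 455 TPM. Both factors act early in follicle formation. Tbpl2, the TBP relative of growing oocytes, had 149.9 and 159 TPM, against 210.2 and 212 TPM (log2 change -0.45, limma adjusted p = 0.62). Ell3, an elongation factor, had 168 and 155 TPM, against 288 and 321 TPM (log2 change -0.91, limma adjusted p = 0.11, and -1.21 with adjusted p = 0.044 after rescaling). At an adjusted p under 0.05 without the fold limit the list held 2 genes, Sub1 and Dynll1. Sub1 had 418 and 448 TPM, against 669 and 709 TPM, and Dynll1 243 and 277 TPM, against 401 and 424 TPM. Both log2 changes were -0.67 (limma adjusted p = 6.0e-06 and 1.4e-05), and -0.97 after rescaling, under the limit of 1.

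**Figure D3:**
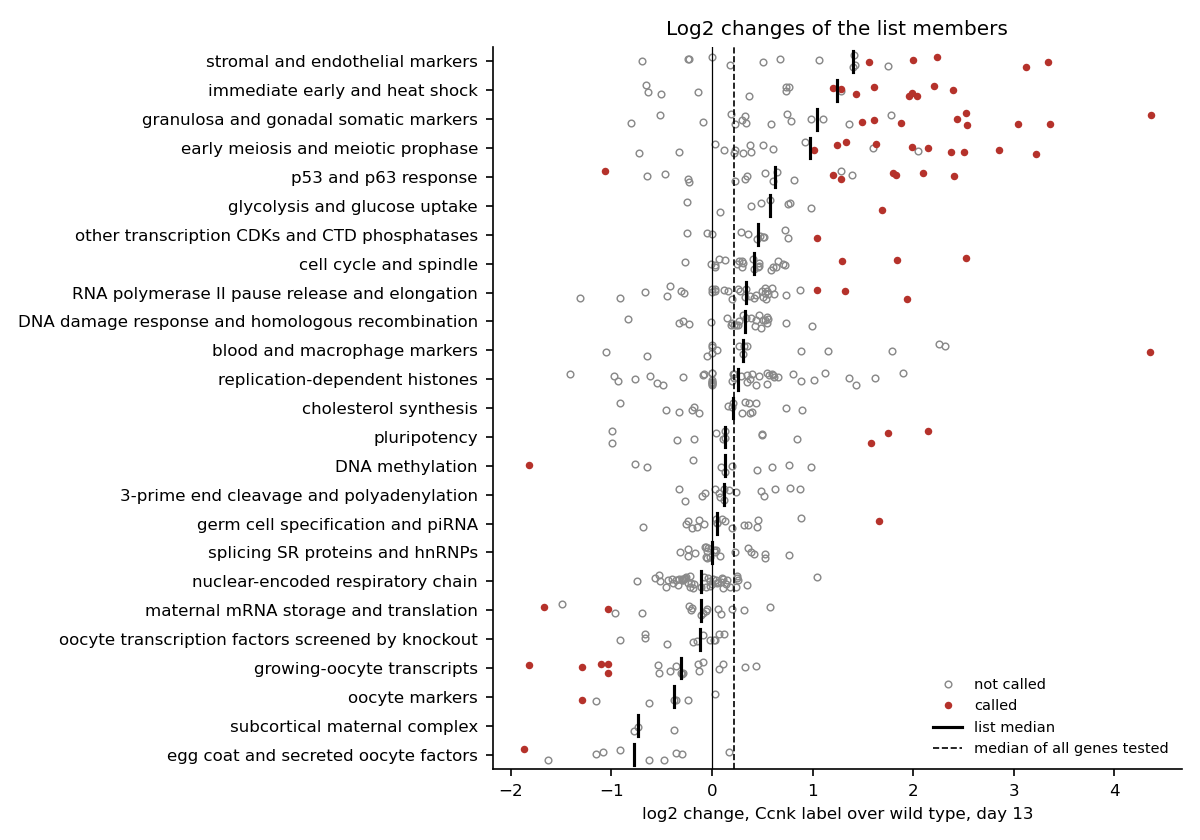
Log2 changes of the libraries labelled Ccnk knockout over wild type of day 13 for the tested members of 25 gene lists (rows), with a filled dot for a called gene, an open dot for one not called and a black bar for the list's median. The lists run from stromal markers, with a median of 1.40, to egg coat factors, with a median of -0.77, and the dashed line is the median of all genes.

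Immediate early genes, transcription factors induced within minutes of a stimulus, were higher than in wild type of day 13 and lower than in wild type of day 11. Of 18 genes of this and the heat shock list 9 were called higher and 0 lower against wild type of day 13, with a median log2 change of 1.24, and after rescaling 7 were called higher. Against wild type of day 11, where 4.39% of all genes were called higher and 7.93% lower, 11 of the 18 were called lower and 0 higher. Nr4a1 (chr15:101254269-101274795, plus strand), an orphan nuclear receptor, had 18.9 and 19.4 TPM in the libraries labelled Ccnk knockout, against 3.00 and 3.75 TPM in wild type of day 13 and 284 and 270.5 TPM in wild type of day 11. Its log2 change over wild type of day 13 was 2.21 (SE 0.42, limma adjusted p = 5.4e-04). Jun and Fos, the subunits of AP-1, had 58.5 and 57.7 TPM and 85.0 and 73.3 TPM, against 21.4 and 20.3 TPM and 36.7 and 27.4 TPM in wild type of day 13. In these 3 genes the 3 groups did not overlap. Their log2 changes over wild type of day 13 were 1.44 for Jun and 1.29 for Fos (limma adjusted p = 0.0010 and 0.0020), and Fos was not called after rescaling. Egr2, Egr3 and Atf3 rose by 2.40, 2.04 and 1.99, and the calls of Egr2 and Atf3 were lost when either Ccnk-labelled library or wild-type replicate 1 was left out.

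Chaperone genes of the same list were not called. Hsp90aa1 had 262 and 257 TPM, against 398 and 411 TPM in wild type of day 13 (log2 change -0.64, limma adjusted p = 3.0e-07), and Hspe1 134 and 139.5 TPM, against 182 and 209 TPM (log2 change -0.51). Neither reached the limit of 1.

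The immediate early promoters are shown for the cAMP response element, a known site of stimulus response. Of the 9 called members 7 had a RefSeq window. TGACGT, searched on both strands, was in 3 of the 7 (Atf3, Egr2 and Fos) and in 1 of 6 not called, against 8.37% of all genes with a window. The full palindrome TGACGTCA, which contains it, was in 0 of the 7 and 1 of the 6, against 2.03% of all genes, and GCGTGGGCG, the site of EGR proteins, was in 0 of either, against 0.707%. The windows of Fos (chr12:85473640-85473939, plus strand) and Atf3 (chr1:191183284-191183583, minus strand) are printed 5′ to 3′ with TGACGT, or its reverse complement, in capitals.
Fos: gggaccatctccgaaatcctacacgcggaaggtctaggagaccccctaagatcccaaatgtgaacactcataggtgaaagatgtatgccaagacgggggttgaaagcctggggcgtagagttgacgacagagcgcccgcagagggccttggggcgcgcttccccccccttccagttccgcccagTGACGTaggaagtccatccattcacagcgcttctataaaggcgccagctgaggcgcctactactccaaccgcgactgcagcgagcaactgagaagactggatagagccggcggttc
Atf3: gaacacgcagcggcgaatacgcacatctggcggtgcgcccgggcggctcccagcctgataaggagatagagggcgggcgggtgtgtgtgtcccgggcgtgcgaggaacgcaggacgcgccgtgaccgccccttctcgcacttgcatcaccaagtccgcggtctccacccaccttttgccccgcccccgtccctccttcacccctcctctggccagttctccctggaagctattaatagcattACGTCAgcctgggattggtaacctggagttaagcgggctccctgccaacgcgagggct

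Targets of p53 and p63, the factors that act in oocytes with damaged DNA, were called in both directions. Of 20 measured 6 were called higher and 1 lower, with a median log2 change of 0.63, against 5.23% higher, 0.91% lower and a median of 0.22 over all genes. After rescaling 4 were higher and 1 lower, against 3.08% and 1.92% over all genes. Cdkn1a, the inhibitor p21, had 38.6 and 42.9 TPM, against 7.62 and 9.99 TPM in wild type of day 13 (log2 change 2.10, SE 0.27, limma adjusted p = 4.2e-06). Wild type of day 11 had 52.5 and 49.4 TPM, above both groups of day 13. Gadd45b had 46.7 and 49.5 TPM, against 14.2 and 12.1 TPM (log2 change 1.80, SE 0.16, limma adjusted p = 1.2e-08), and Gadd45g and Sesn2 rose by 2.41 and 1.83. The Gadd45 genes are also immediate early genes of many stimuli. Pmaip1, which encodes the death effector NOXA, had 21.4 and 20.0 TPM, against 43.7 and 44.9 TPM (log2 change -1.06, SE 0.19, limma adjusted p = 2.2e-04). Trp63 itself had 83.4 and 85.5 TPM, against 96.6 and 103 TPM, and Trp53 had 42.6 and 48.8 TPM, against 24.6 and 26.3 TPM (log2 change 0.82); neither was called.

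The DNA damage response genes for which cyclin K is best known had at most 1 call past the fold limit under the alternatives tried. Of 26 measured genes of the DNA damage response and homologous recombination 0 were called in either direction by limma, with a median log2 change of 0.33, against 0.22 over all genes. At an adjusted p under 0.05 without the fold limit the list held 4 genes, and after rescaling 1, Mus81, was called lower. Brca1 had 35.7 and 32.0 TPM, against 23.1 and 25.3 TPM in wild type of day 13 (log2 change 0.47, limma adjusted p = 0.018), and Parp1 had 331 and 328 TPM, against 287 and 292 TPM (log2 change 0.18, limma adjusted p = 0.15, and -0.11 after rescaling). Fancc, of the Fanconi anemia core complex, came nearest the limit with 59.2 and 59.1 TPM, against 27.2 and 31.3 TPM (log2 change 0.995, limma adjusted p = 1.1e-04). It was called higher with a pseudocount of 0.1 (log2 change 1.02) and without wild-type replicate 2 (log2 change 1.09), which made the count 1.

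Gene length was described over 4 bins of annotated span, from start to end of the gene, with no test. Genes of the shortest bin, up to 9.38 kb, had a median log2 change of 0.12, and genes of the longest, from 57.2 kb, 0.26. In the 2 bins between the median was 0.25 in each. Of the longest genes 5.54% were called higher and 1.25% lower, and of the shortest 4.29% higher and 1.38% lower. In the 2 bins between 5.41% and 5.78% were called higher and 0.608% and 0.405% lower. Among genes at a mean of at least 10 TPM the lower calls were 1.28%, 0.467%, 0.467% and 0.643%, from shortest to longest bin. The higher calls of these genes were 6.65%, 6.13%, 6.72% and 5.55%, so the longest bin had the smallest share. Over all tested genes with a span, the median of the longest bin was the highest of the 4.

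Among 35 genes of pause release and elongation 3 were called higher and 0 lower, with a median log2 change of 0.34, and 2 higher and 1 lower after rescaling. Over all genes 5.23% were called higher, 0.91% lower and the median was 0.22, so the count of 3 is near the share over all genes. Polr2a, the large subunit of RNA polymerase II, had 160.3 and 163 TPM, against 79.9 and 75.4 TPM in wild type of day 13 (log2 change 1.05, SE 0.09, limma adjusted p = 4.4e-09), and 0.75 after rescaling. Eaf2, a partner of ELL proteins, had 9.73 and 8.16 TPM, against 1.58 and 1.6 TPM (log2 change 1.94), and Aff3, of the super elongation complex family, rose by 1.33, or 0.90 without wild-type replicate 1. Cdk9, the kinase of pause release, had 32.2 and 34.9 TPM, against 25.1 and 21.1 TPM (log2 change 0.52, limma adjusted p = 0.084). Of 12 genes of other transcription kinases and phosphatases of the C-terminal domain 1, the phosphatase gene Ctdsp2, was called higher (log2 change 1.04), and not after rescaling or without Ccnk-labelled or wild-type replicate 1, a share also near that over all genes. None of 16 cleavage and polyadenylation genes, 22 splicing genes and 44 tested replication-dependent histone genes was called, at medians of 0.12, -0.00 and 0.25. Among them at an adjusted p under 0.05 without the fold limit were 3, 7 and 0 genes.

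Cell cycle genes were called in 3 of 25 cases, all higher, against 5.23% called higher over all genes. Top2a, the topoisomerase of chromosome condensation, had 59.4 and 59.5 TPM, against 10.1 and 8.89 TPM in wild type of day 13 (log2 change 2.53, SE 0.16, limma adjusted p = 4.0e-11), with 38.6 and 48.5 TPM in wild type of day 11. Ccne2, a cyclin of S phase entry, and Cdc20, the activator of the anaphase-promoting complex, rose by 1.84 and 1.29. All 3 calls held after rescaling and with any of the 4 libraries left out. Of 14 pluripotency genes 3 were called higher, Klf5, Klf4 and Dppa4, all under 11 TPM, and 0 without wild-type replicate 1. After rescaling 2 pluripotency genes were called higher and 2, Esrrb and Tbx3, lower. Dnd1, an RNA-binding protein of early germ cells, was the 1 call among 19 genes of germ cell specification and piRNA (log2 change 1.66), and Hk1, a hexokinase, the 1 among 9 of glycolysis (log2 change 1.69). Single calls in lists of this size are near the share over all genes. The germ cell count was 2 without wild-type replicate 2, and the glycolysis count was 2 without Ccnk-labelled replicate 2 or wild-type replicate 1. Of 17 cholesterol synthesis genes 0 were called, and of 11 DNA methylation genes 1, Dnmt3l, which the growing-oocyte list also holds.

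Some markers of the somatic cells that surround oocytes in the reconstituted ovary were also higher than in wild type of day 13. Of 24 tested markers of granulosa and other gonadal somatic cells 9 were called higher and 0 lower, with a median log2 change of 1.04. Over all genes 5.23% were called higher and 0.91% lower, with a median of 0.22. After rescaling 8 of the 24 were higher, against 3.08% over all genes. The summed level of 25 measured markers of these cells was 503 and 482 TPM in the libraries labelled Ccnk knockout. Wild type of day 13 had 397 and 385 TPM, of which Serpine2 alone had 344 and 332 TPM. Wild type of day 11 had 1929 and 1944 TPM. Inha, the inhibin alpha subunit of granulosa cells, had 70.8 and 74.1 TPM, against 13.5 and 11.7 TPM in wild type of day 13 (log2 change 2.44, SE 0.13, limma adjusted p = 2.6e-12). Amhr2 had 37.9 and 32.0 TPM, against 6.61 and 4.10 TPM, and Myl9, a myosin light chain, 48.7 and 41.7 TPM, against 0.79 and 1.79 TPM. In wild type of day 11 Inha had 295 and 292 TPM and Myl9 428 and 429 TPM, above both day 13 groups.

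The summed level of 17 stromal and endothelial markers was 265 and 250.0 TPM, against 68.7 and 72.4 TPM in wild type of day 13, and 859 and 870.0 TPM in wild type of day 11. The median log2 change of these was 1.40, against 0.22 over all genes. By limma 5 were called higher and 0 lower, against 5.23% and 0.91% over all genes, and 3 higher after rescaling. The count was 9 without the Sohlh1 knockout libraries and 2 or 3 with 1 of the 4 compared libraries left out. Col1a1, a collagen of fibroblasts, had 15.9 and 18.6 TPM, against 0.61 and 0.99 TPM (log2 change 3.35, SE 0.60, limma adjusted p = 3.1e-04). The endothelial markers Pecam1, Tek and Tie1 were under 7 TPM in all 4 libraries and Emcn was at 0. Blood and macrophage markers summed to 91.4 and 70.6 TPM, against 93.6 and 76.1 TPM. Lyz2 was the 1 of 17 called higher, near the share over all genes. Without the Sohlh1 knockout libraries 4 of the 17 were called higher and 1 lower. Ptprc was at 0 in all 4 libraries, and 4 and 5 markers, against 11 and 10, were at 0. The 7 oocyte markers were all detected and summed to 38419 and 37564 TPM, against 55003 and 53784 TPM, with Npm2 the 1 called lower, a call lost with any 1 of the 4 libraries left out. Without the Sohlh1 knockout libraries 2 oocyte markers were called lower. The part of somatic RNA in the results on meiotic, immediate early, p53 and oocyte growth genes was not tested.

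Of the genes named for the highest called changes, several are somatic or immune genes, with Dmc1 among them. Myl9 had a log2 change of 4.36 (limma adjusted p = 2.4e-06), and the others given here are Lyz2 (4.35), the major histocompatibility gene H2-Ab1 (4.24), the collagen gene Col6a1 (3.71), Serpinf1 (3.59), Hsd3b1 of steroid synthesis (3.36), Col1a1, Dmc1 and Rgcc (3.15). The calls of Lyz2 and Col6a1 were lost without Ccnk replicate 1, and that of Lyz2 also without wild-type replicate 1. Of the lowest, Adm2, a hormone of the calcitonin family, had 13.9 and 7.43 TPM, against 72.4 and 76.1 TPM in wild type of day 13 (log2 change -2.75, SE 0.48, limma adjusted p = 2.0e-04). Sebox, a homeobox gene of oocytes, had 3.53 and 2.32 TPM, against 13.6 and 18.9 TPM (log2 change -2.13), and Bach2 2.65 and 3.32 TPM, against 16.2 and 13.8 TPM (log2 change -2.00). Il17f, AU021063, BB557941, Adtrp, Stat4, Pak7 and Oosp3 completed the lowest 10, with log2 changes of -2.73 to -1.87. The calls of AU021063, Adtrp and Stat4 were lost with any 1 of the 4 libraries left out, and that of Il17f without Ccnk replicate 1 or wild-type replicate 1. Mos, the kinase that holds eggs in meiotic arrest, was named after its values were seen: it had 42.2 and 41.9 TPM, against 159 and 151 TPM (log2 change -1.86, SE 0.51, limma adjusted p = 0.012).

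**Figure D4:**
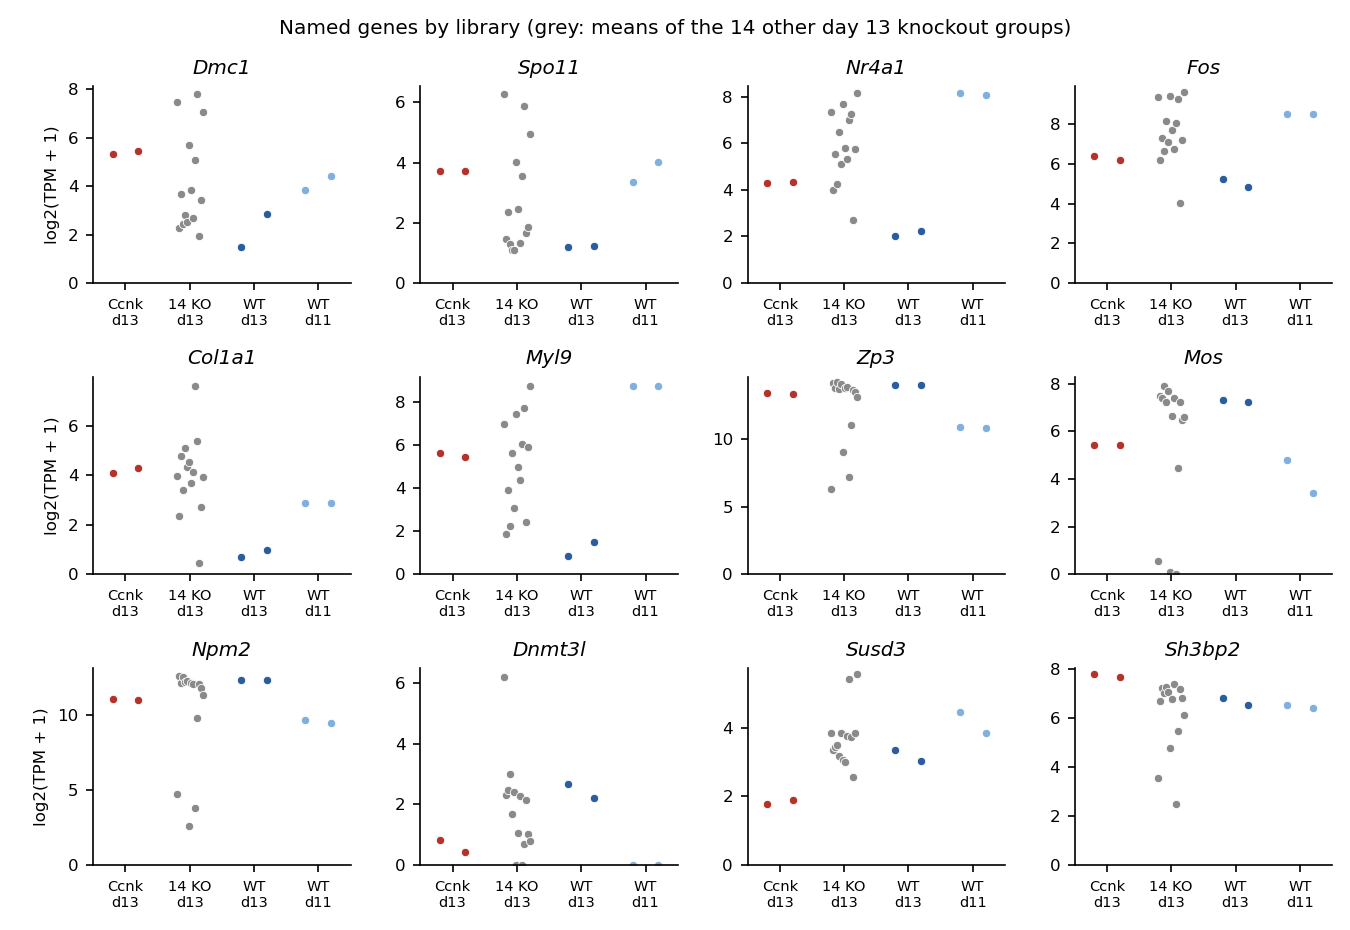
Level of 12 named genes as log2(TPM + 1) (vertical axes) in the libraries labelled Ccnk knockout (red), as means of the 14 other day 13 knockout groups (grey), and in wild type of day 13 (blue) and day 11 (light blue). For Dmc1 and Spo11 red lies above day 13 wild type and inside the grey range, while for Susd3 it lies below and for Sh3bp2 above every grey point.

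The other day 13 knockouts give a wider set of libraries to place these results. Between the libraries labelled Ccnk knockout and the equal-weight mean of the 14 other day 13 knockout groups, 82 genes were called higher (0.666%) and 47 lower (0.382%) of 12306 tested. After rescaling 57 were higher and 63 lower. Without Ccnk-labelled replicate 1 the calls were 33 higher and 15 lower, without replicate 2 they were 42 and 15, and without the Sohlh1 knockout libraries 78 were lower. Among the 18 immediate early and heat shock genes 0 were called higher and 7 lower, Nr4a1, Fos, Jun, Dusp1, Hspa1a, Hspa1b and Hspb1, and 2 or 3 were called lower without Ccnk-labelled replicate 1 or 2. Their summed level was 1055 and 1047 TPM in the libraries labelled Ccnk knockout, below the mean of 13 of the 14 other knockouts, which spanned 970.3 to 3323 TPM, and wild type of day 13 had 979.7 and 1042 TPM. Of the granulosa and gonadal somatic markers 2, Fst and Krt19, were called lower, and of the stromal and endothelial markers 1, Pecam1. With either Ccnk-labelled library left out 1 granulosa and gonadal somatic marker and 0 stromal and endothelial markers were called lower. The stromal sum was above that of 4 and below that of 10 of the other knockouts, whose median was 398 TPM. Wild type of day 13, at 68.7 and 72.4 TPM, was near the lowest of the day, 62.7 TPM in the Tcf25 knockout. The granulosa and gonadal somatic sum of the libraries labelled Ccnk knockout was above that of 3 and below that of 11 of the other knockouts.

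Dmc1 and Spata22 were the 2 of 24 meiotic genes called higher against the other knockouts, with log2 changes of 1.20 and 1.10 (limma adjusted p = 9.1e-04 and 0.0052), and neither was called without Ccnk-labelled replicate 2. The mean level of Dmc1 was exceeded in 4 of the 14 other groups, the highest at 226 TPM, and that of Spata22 in 5. Of the oocyte genes the egg coat and secreted factors had 3 called higher and 0 lower of 10 (Gdf9, Zp3 and Astl), and 0 without the Sohlh1 knockout libraries. Their sum of 16597 and 16250.5 TPM was below that of 9 and above that of 5 of the 14 groups, which ran from 146 TPM in the Dynll1 knockout to 30579.8 TPM in the Hes6 knockout. A mean over those groups holds knockouts in which oocyte genes were nearly absent.

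Genes outside the range of every other day 13 library were picked for that after the values were seen, with no test. Both libraries labelled Ccnk knockout were above all 30 others in 111 of the 12306 genes tested and below all in 14. The same count was not made for the other day 13 groups. Of these genes, 7 were called higher and 3 lower against wild type of day 13, which is among the 30 libraries used to pick them. Over all genes 5.23% were called higher and 0.91% lower. Cdk12 was 1 of the 7. Sh3bp2, an adaptor of tyrosine kinase signalling, had 217 and 200.4 TPM, against 111 and 92.1 TPM in wild type of day 13 and at most 168 TPM in any other day 13 library. Epas1, a hypoxia-inducible factor, had 33.5 and 30.4 TPM, against 12.6 and 10.0 TPM, with a highest other value of 24.9 TPM. The other 4, Arid3c, Kctd7, Dock8 and the clone 5430421N21Rik, were under 28 TPM. Of the 7, Kctd7 and 5430421N21Rik kept a call after rescaling.

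The 3 called lower were Susd3, Rab3b and Pde8b. Susd3, a membrane protein gene, had 2.43 and 2.73 TPM, against 9.17 and 7.10 TPM in wild type of day 13, and at least 3.92 TPM in each of the others. Rab3b, a GTPase of secretion, had 3.73 and 2.78 TPM, against 9.21 and 15.7 TPM in wild type of day 13, and at least 6.23 TPM elsewhere on that day. Wild type of day 11 had 5.56 and 5.04 TPM of Rab3b. Pde8b, a phosphodiesterase, had 2.19 and 1.30 TPM, against 6.03 and 5.28 TPM.

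**Figure D5:**
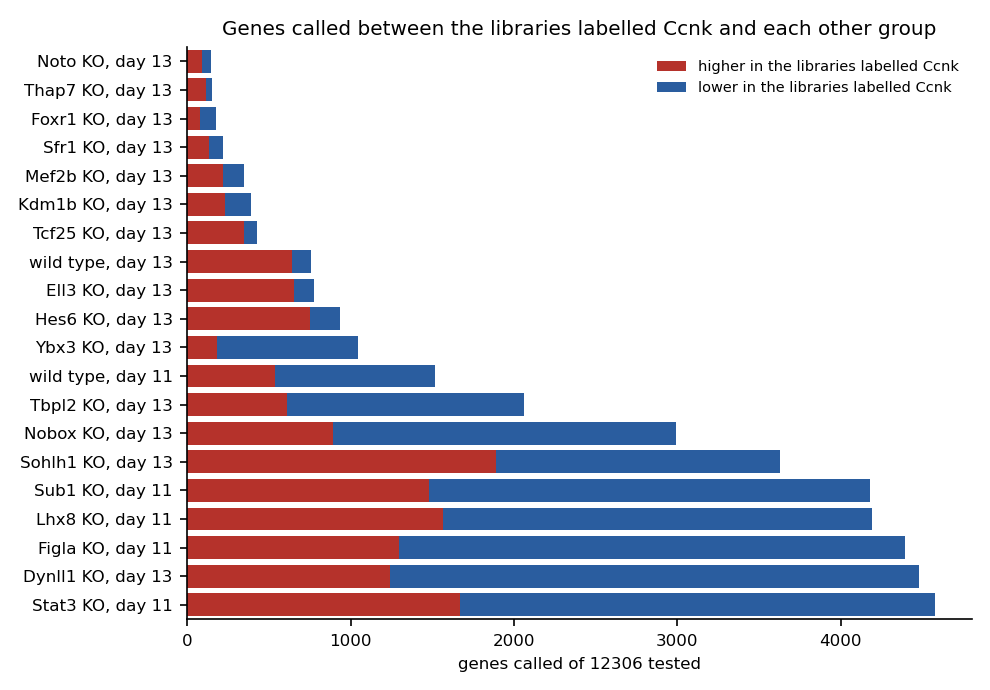
Genes called (horizontal axis, of 12306 tested) between the libraries labelled Ccnk knockout and each of 20 other groups (rows, fewest calls at the top), split into genes higher (red) and lower (blue) in the libraries labelled Ccnk knockout. The Noto, Thap7 and Foxr1 knockouts of day 13 lie nearest, with 148, 153 and 177 genes, while wild type of day 13 has 755 and wild type of day 11 has 1516.

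Set against each group directly, the libraries labelled Ccnk knockout differed least from the knockouts of Noto (148 genes called), Thap7 (153), Foxr1 (177) and Sfr1 (221). The count was 755 for wild type of day 13 and 1516 for wild type of day 11, while the Tbpl2, Nobox, Sohlh1 and Dynll1 knockouts gave 2061, 2990, 3630 and 4481. The median log2 change over all genes was 0.13 against the Noto knockout and 0.11 against the Thap7 knockout. These counts come from 1 fit with a shared spread, and the order was not tested.

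Against wild type of day 11, 540 genes were called higher (4.39% of the genes tested) and 976 lower (7.93%). Of 10 egg coat and secreted factors 8 were called higher and 0 lower, with a median log2 change of 1.85, and of 19 growing-oocyte transcripts 10 higher and 2 lower. Of the egg coat factors 5 were called higher without Ccnk-labelled replicate 1 or without day 11 replicate 1, and of the growing-oocyte transcripts 1 was lower with any 1 of the 4 libraries left out. Granulosa and gonadal somatic markers were called lower in 19 of 24 cases, with a median of -2.51. Of 24 meiotic genes 1 was called higher, Dmc1, and 1 lower, Msh4, at a median of 0.02, counts near or under the shares over all genes. Without day 11 replicate 1, 4 were higher, and without Ccnk-labelled replicate 1, 0 were lower.

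Ell3, like cyclin K, acts in elongation, and its knockout of day 13 allows a comparison without wild type. Between the libraries labelled Ccnk knockout and the Ell3 knockout 654 genes were called higher (5.31%) and 122 lower (0.991%), and after rescaling 239 and 284, with a median log2 change of all genes of 0.26 that rescaling brought to 0. Of 24 meiotic genes 11 were called higher and 0 lower, or 7 and 1 after rescaling. Dmc1 and Adad1, a testis and germ cell gene, were among the highest. With 1 of the 4 libraries left out 63 to 72 genes were called lower. Of 19 growing-oocyte transcripts 0 were called higher and 6 lower, or 3 lower with any 1 library left out, and of 24 granulosa and gonadal somatic markers 8 higher and 0 lower. Ccnk itself had 178 and 185 TPM in the Ell3 knockout.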

How the data were processed

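Values are TPM as the authors deposited them, 1 column per library. Genome build mm10, STAR 2.6.0 and featureCounts 1.6.0 are named per the submitters' processing notes, and the annotation and strand setting of the counting are not given in the sources used here. It holds 15163 rows; 1 incomplete row and 22 rows with date names were left out, and 80 columns that match no sample were not used. Of 71 samples 68 have a column, and 3 were not analysed here. Depth is unknown from TPM, so no counting error was given. Genes at 1 TPM or more in at least 2 of 42 libraries of the 21 groups of days 11 and 13 were fitted with limma 3.58.1 (R 4.3.3) after adding 1 TPM and taking log2, trend and robust options on, with 1 mean per group, 21 residual degrees of freedom and Benjamini-Hochberg adjustment over 12306 genes. On simulated data for the comparison with wild type of day 13, over 12112 genes, 100 genes were changed by each size. Of those changed by 1.5 on the log2 scale 88% were called, and of those changed by 3, 100%. Of the unchanged genes 11 were called. The changed genes were drawn only from those at a level of at least 10 TPM in wild type of day 13. These shares hold for such genes and were not split further by level. They do not say how often genes low in wild type of day 13, such as Myl9, Col1a1 and Dmc1, would be called.

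The genes named were the targets of the knockouts, the 10 highest and 10 lowest called genes against wild type of day 13 (5 and 5 in other comparisons) whose groups do not overlap, with a mean of at least 10 TPM in the higher group, leaving out predicted genes, and up to 4 called and 2 uncalled members of each list. Other genes, the genes outside all day 13 libraries, the summed levels and the promoter motifs were chosen after their values were seen. The members and lists were chosen with earlier results of these data known. Positions are from GENCODE M21 (GRCm38) and promoters from RefSeq. Families with near-identical copies (H2-D1 and relatives, Hspa1a and Hspa1b, Oog genes) are uncertain. Alternatives were another pseudocount, no filter, median-of-ratios rescaling, a replicate block, fewer or more samples in the fit, no trend, no fold limit and leaving out each replicate. Some genes that the rule names are not reported here.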

Additional observations from a re-analysis of the deposited data

How the results depend on the processing

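Rescaling turned the log2 change over wild type of day 13 to -0.28 for Ccnk, -0.13 for Cdk13, -0.18 for Hes6, -0.23 for Sfr1, -0.27 for Sohlh1 and -0.11 for Parp1, and gave 379 genes higher and 236 lower there, and 239 and 284 against the Ell3 knockout. Leaving out 1 library gave -0.042 to 0.082 for Ccnk, -0.071 to 0.030 for Thap7, -0.077 to 0.038 for Hnrnph1 and -0.71 to 0.14 for Hist1h2bc, none called. The same gave 472 (without the library labelled Ccnk knockout replicate 1) to 567 genes called against wild type of day 13, 419 to 491 higher and 53 to 76 lower. Against the 14 other knockouts it gave 48 to 57 called, 33 to 42 higher and 15 lower, and against the Ell3 knockout 63 to 72 lower. A pseudocount of 0.1 gave 63 genes lower against wild type of day 13 and 76 against the Ell3 knockout. A fit on the groups compared alone gave 214 lower against wild type of day 13, 355 higher against wild type of day 11, and 1174 called and 256 lower against the Ell3 knockout. Without the Sohlh1 knockout libraries 78 were lower against the other knockouts and 191 against the Ell3 knockout. Against wild type of day 13 that fit called 1047 genes, 885 higher and 162 lower.

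With no fold limit 2183 genes were called against wild type of day 13 (1873 higher, 310 lower), 1146 against the other knockouts (902 and 244), 3073 against wild type of day 11 (1194 and 1879) and 2763 against the Ell3 knockout (2456 and 307). Same-numbered libraries did not deviate together across genes (r = 0.0054 between the libraries labelled Ccnk knockout and wild type of day 13). This value cannot tell whether same-numbered libraries share a culture. A replicate block gave 750 called against wild type of day 13, 128 against the other knockouts, 1521 against day 11 and 779 against the Ell3 knockout, with no call of a named gene changed. The causes were not tested. With 2 libraries a group, counts of low genes rest on single libraries, and TPM keeps no depth.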
